A study of Mus musculus with 4 samples.

Results

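The mitochondrial protein import machinery is the set of translocases, chaperones and peptidases that carries proteins made in the cytosol into the mitochondrion. Its genes were followed in 4 RNA libraries of mouse AGM explants (aorta-gonad-mesonephros), cultures of the embryonic tissue where haematopoietic stem cells arise. Members were the rows of the gene tables whose symbol is a Tomm or Timm name, Grpel1, Grpel2, Pam16, Dnajc15, Dnajc19, Samm50, Mtx1, Mtx2, Mtx3, Chchd4, Gfer, Pmpca or Pmpcb, without names marked as pseudogenes (1 row, Timm29-ps1, was left out by this). They numbered 40 of 49997 genes, 13 of them at the outer membrane and 14 at the inner membrane. The rule used gene names alone, but it was set with earlier results of these data known.

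All 4 libraries came from C57BL/6J embryos; the labels name the stages E10.5 and E11.5 (days of gestation) without saying which library held which. Explants were kept for 48 hours on membrane filters in MyeloCult medium with hydrocortisone, 2 libraries with no further treatment and 2 with 5 µM CCCP. CCCP is a protonophore, a compound that carries protons across the inner mitochondrial membrane and so dissipates its potential. The labels do not say whether the 2 libraries of a group came from separate explants, so the spread between them may be technical.

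Libraries held 37360968 to 48827826 counted reads, and between 0.157% and 0.189% of these fell in the 40 members. Levels are given as CPM, counts scaled to the size of the library with TMM factors. By total counts alone, without these factors, 3 counts are worth 0.0614 to 0.0803 CPM, a floor that entered no filter or test. The labels give the cell type as stem cells. Of 8 haematopoietic stem and progenitor markers, none was at 0, though Gfi1, with 4 to 12 counts, failed the filter on low counts. Their summed level was 118 to 148 CPM, while 4 mesenchymal markers summed to 2150 to 3604 CPM. In both CCCP libraries 1 of the 8, Spi1, was higher (24.0% of all genes tested) and 1, Ptprc, lower (24.8%). The median log2 fold change of those that passed was -0.205, and the part of this class in the results was not tested. Hepatic markers differed most: 6 of 6 were lower in both CCCP libraries (24.8% of all genes tested). Their summed levels were 1335 and 791 CPM untreated and 5.54 and 62.8 CPM with CCCP. Their part in the results below was not tested. Of 4 neural markers 3 were higher (24.0% of all genes tested) and 1 lower (24.8%) in both CCCP libraries. Their median log2 fold change was 0.51, with summed levels of 525 and 524 CPM untreated and 652 and 634 CPM with CCCP. Of 4 endothelial markers 2 were lower in both (24.8% of all genes tested). Their sums were 345 and 448 CPM untreated and 339 and 335 CPM with CCCP. The part of the neural or endothelial class in the results was not tested. On the first principal component, which held 49.4% of the variance over all genes, untreated replicates 1 and 2 lay at -61.9 and -13.6 and CCCP replicates 1 and 2 at 19.4 and 56.1.

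Most mitochondrial proteins are encoded in the nucleus. Precursors are recognised by receptors of the TOM complex and pass the outer membrane through its Tomm40 channel. Beta-barrel proteins are then placed into the outer membrane by the SAM complex, small cysteine proteins are trapped in the intermembrane space by a disulfide relay, and carrier proteins are inserted into the inner membrane by the TIM22 complex. Precursors with a cleavable presequence cross the inner membrane through TIM23, which needs the membrane potential that CCCP removes, and are pulled in by the motor PAM before a matrix peptidase cuts off the presequence.

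In CCCP explants 32 of the 38 import genes that passed the filter on low counts had a higher fitted level than in untreated explants, and 6 a lower one, where 49.2% of all 19837 genes tested were higher. Their median log2 fold change was 0.27, against -0.01 over all genes tested, and single genes ran from -0.63 (Mtx3) to 0.48 (Timm17b). None passed the quasi-likelihood test of edgeR at an adjusted p of 0.05 (0 of 38, where 0.0% of all genes passed), and their adjusted p-values ran from 0.166 to 0.991. At an unadjusted p under 0.05 there were 6 import genes: Mtx3 on the lower side (9.16% of all genes), and Timm17b, Timm13, Tomm6, Timm22 and Mtx1 on the higher side (5.45% of all genes). DESeq2 called 1 member, Mtx3, where it called 2.99% of all genes. In bulk RNA, fewer cells of a type and less RNA per cell cannot be told apart, and these values are levels averaged over the explant.

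Without overlap between groups, 23 of the 38 genes were higher in both CCCP libraries (24.0% of all genes tested) and 2, Mtx3 and Timm21, were lower in both (24.8% of all genes); the other 13 overlapped. Untreated replicate 1 was the lowest library for 32 of the 38 genes and CCCP replicate 2 the highest for 30. The median deviation of the 38 genes from their mean over the libraries on the log2 scale was -0.27 and 0.02 untreated and 0.06 and 0.21 with CCCP. Untreated replicate 2 and CCCP replicate 1 thus stood closer to each other than the untreated libraries did, and the order was that of the first principal component. The median log2 fold change of the import genes was 0.15 when untreated replicate 1 was left out (30 of 38 higher) and 0.44 when untreated replicate 2 was (36 of 38 higher). edgeR called 0 import genes with any 1 library left out, where it called 0.00504% of all genes without untreated replicate 1 or CCCP replicate 1, 0.171% without untreated replicate 2 and 0.111% without CCCP replicate 2. It also called 0 with RLE scaling, no scaling, the stricter filter, or the length or GC trend removed (0.0% of all genes in each). It called 1 without a filter on low counts (3.43% of all genes), 7 with the replicate number as a block (10.7%) and 1 with that block and the length trend removed (7.32%); the numbers are not a known pairing. The column of untreated replicate 1 is headed UM1 in its file where the sample title reads UN, and it was kept as the title gives it.

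**Figure D1:**
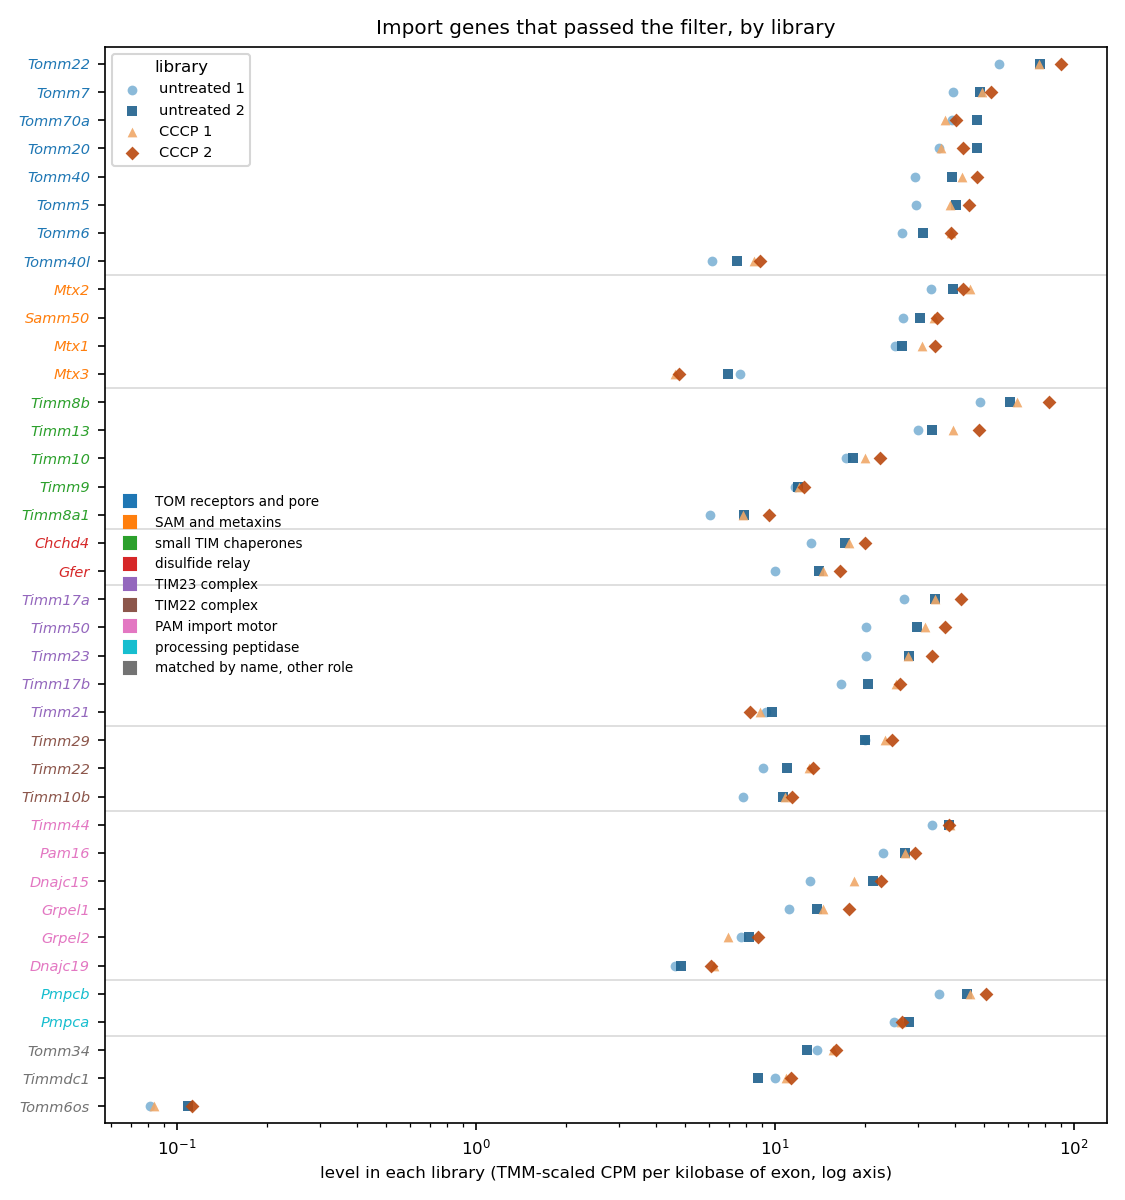
Level of each import gene that passed the filter in each of the 4 libraries, as CPM scaled by TMM per kilobase of exon on a log axis, grouped by role (label colour). Untreated replicate 1 is the leftmost symbol for 32 of 38 genes, and Mtx3 is the gene whose CCCP libraries lie farthest to the left of its untreated ones.

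At the outer membrane, all 3 import receptors overlapped between groups. Tomm20, the receptor that binds presequences (chromosome 8, 126930664 to 126945921), had 176 and 235 CPM untreated and 179 and 212 CPM with CCCP. Its groups overlapped fully, and the log2 fold change was -0.07 (standard error 0.177, edgeR adjusted p 0.871). Tomm70a, the receptor for carrier precursors, had 147 and 178 CPM untreated and 140 and 152 CPM with CCCP, again with overlap. The log2 fold change was -0.16 (edgeR adjusted p 0.609). With the trend with GC content removed, Tomm20 and Tomm70a turned to 0.045 and 0.129. Per kilobase of exon, the highest level of the complex was that of Tomm22, the central receptor that links the others to the pore, at a mean of 74.9 CPM per kilobase. Tomm22 had 57.2 and 78.5 CPM untreated and 78.1 and 92.8 CPM with CCCP, so untreated replicate 2 lay just above CCCP replicate 1.

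The pore and its small subunits had higher log2 fold changes than Tomm20 and Tomm70a, a difference that was not tested. Tomm40, the beta-barrel that forms the channel, had 53.4 and 71.0 CPM untreated and 76.8 and 86.1 CPM with CCCP, without overlap. Its log2 fold change was 0.39 (standard error 0.166, edgeR adjusted p 0.352). Tomm6 (chromosome 17, 47686645 to 47688386), a small subunit that helps to hold the complex together, had 26.8 and 31.4 CPM untreated and 39.0 and 39.1 CPM with CCCP. That is 29.1 ± 3.24 against 39.1 ± 0.0668 CPM (SD, n = 2), or 0.43 in log2 fold change (standard error 0.138). It had the smallest p-value of the TOM genes, and its edgeR adjusted p was 0.276. The other small subunits, Tomm7 and Tomm5, had log2 fold changes of 0.21 and 0.25, Tomm5 with overlapping groups.

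For 2 TOM genes the counting itself sets limits. Strand was ignored in the counting, and a read over exons of several genes was given to none of them. Exons of Tomm6 share 31.2% of their bases with genes on the other strand, among them Tomm6os, the antisense transcript, which held 12 counts in every library. Tomm40l, a second Tomm40-like gene, shares 40.6% of its exon bases with Apoa2 and Nr1i3 on the other strand. Apoa2, an apolipoprotein gene of liver, went from 21.4 and 14.2 CPM untreated to 0.3503 and 1.24 CPM with CCCP, while Tomm40l went from 17.9 and 21.8 to 24.7 and 25.9 CPM; the part of the shared bases in the Tomm40l value was not tested. Tomm20l, a Tomm20-like gene, did not pass the filter, with counts of 0 and 4 untreated and 1 and 0 with CCCP.

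The sorting and assembly machinery held the largest difference of the whole set. Mtx3 (chromosome 13, 92844743 to 92858230), a metaxin of the outer membrane, had 55.8 and 50.7 CPM untreated and 33.97 and 34.8 CPM with CCCP. Both CCCP values lay well under both untreated ones. The means were 53.3 ± 3.58 and 34.4 ± 0.595 CPM (SD, n = 2), and the log2 fold change was -0.63 (standard error 0.120). The adjusted p was 0.166 in the main edgeR fit and 0.0124 in DESeq2. Mtx3 was also called in the 3 edgeR fits that called any member, so the call depended on the tool and the settings. With 7322 bases of exon, Mtx3 is also the longest member, and the 1984 genes of its class of exon length, with 6761 to 9626 bases, had a median log2 fold change of -0.20.

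The other genes of the machinery pointed the other way. Mtx1 and Mtx2, the metaxins that sit with Samm50, had 30.4 and 32.1 CPM and 41.8 and 49.4 CPM untreated, and 37.4 and 41.5 CPM and 56.3 and 53.6 CPM with CCCP. Neither overlapped between groups, with log2 fold changes of 0.34 and 0.27 (edgeR adjusted p 0.325 and 0.396). Samm50, the beta-barrel that inserts other barrels, went from 92.2 and 105 CPM to 117 and 120 CPM, a log2 fold change of 0.26 (edgeR adjusted p 0.372). Per kilobase of exon, Mtx3 stood at 0.303 and 0.260 of the Mtx1 level untreated and at 0.150 and 0.139 of it with CCCP.

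Promoter sequences of outer membrane genes are shown because the metaxins differ in direction while their promoters share a sequence element. Windows of 250 bases before the RefSeq start (GRCm38.p6) were found for 36 members and searched on both strands for CCGGAAG, a core of ETS factor sites, TGCGCA, the core of the NRF1 site, and TGATGNAA, a form of the element bound by ATF4. The window held CCGGAAG for 15 of the 36 members, or 41.7%, against 12.6% of tested genes with a window and 6.91% of all windows. TGCGCA was found for 4 members (Pam16, Timm13, Timm23 and Tomm20), or 11.1%, close to the 11.4% of tested genes that hold it (6.43% of all windows). TGATGNAA was found for 0 members, against 2.63% of tested genes and 3.45% of all windows. Each line below gives the last 150 bases before the start, 5′ to 3′ on the strand of the gene, with matches in capitals. Mtx1 lies at chr3:89213908-89214057 on the minus strand, Mtx2 at chr2:74825662-74825811 (plus), Mtx3 at chr13:92844618-92844767 (plus), Tomm22 at chr15:79670718-79670867 (plus), Tomm70a at chr16:57121564-57121713 (plus) and Tomm20 at chr8:126945922-126946071 (minus).
Mtx1: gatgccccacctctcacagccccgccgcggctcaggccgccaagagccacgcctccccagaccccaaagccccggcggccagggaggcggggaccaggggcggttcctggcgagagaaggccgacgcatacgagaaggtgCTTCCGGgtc
Mtx2: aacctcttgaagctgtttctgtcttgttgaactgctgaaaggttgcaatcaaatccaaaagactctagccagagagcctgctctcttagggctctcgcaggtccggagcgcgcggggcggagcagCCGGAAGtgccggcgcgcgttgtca
Mtx3: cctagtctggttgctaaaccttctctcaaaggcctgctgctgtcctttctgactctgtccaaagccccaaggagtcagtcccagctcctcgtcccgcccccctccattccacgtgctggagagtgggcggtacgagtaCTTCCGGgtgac
Tomm22: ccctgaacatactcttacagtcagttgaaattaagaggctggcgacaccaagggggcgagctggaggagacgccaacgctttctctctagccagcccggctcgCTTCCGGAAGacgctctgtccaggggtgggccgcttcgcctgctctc
Tomm70a: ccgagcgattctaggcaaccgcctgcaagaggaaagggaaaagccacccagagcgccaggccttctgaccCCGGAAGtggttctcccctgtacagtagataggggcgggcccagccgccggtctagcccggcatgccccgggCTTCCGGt
Tomm20: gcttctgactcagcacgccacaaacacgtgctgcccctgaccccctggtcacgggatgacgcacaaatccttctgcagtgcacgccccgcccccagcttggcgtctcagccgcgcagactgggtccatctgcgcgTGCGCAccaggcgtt
Mtx1, Mtx2 and Mtx3 each carry the ETS letters close to the start, Mtx1 and Mtx3 in the reverse orientation. The last 25 bases printed for Mtx3, with the match, are exon in the annotation used for counting, which starts the gene upstream of the RefSeq start used here. In Tomm22 a forward and a reverse match share bases, and Tomm70a holds 2 separate matches. The capitals of Tomm20 are the NRF1 letters. The median log2 fold change was 0.27 over the 14 tested members with CCGGAAG and 0.31 over the 20 without it. The 6 promoters were picked, and the NRF1 letters put in place of a longer form of that site, after matches had been seen; the longer form had matched a partly different set of members. A match is a description of these letters and not a bound site.

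In the intermembrane space, small TIM proteins escort hydrophobic precursors as ringed complexes of 2 partners. Timm13 (chromosome 10, 80899450 to 80900969), the partner of Timm8a1, had 36.7 and 41.0 CPM untreated and 48.2 and 58.9 CPM with CCCP. The means were 38.8 ± 3.04 and 53.5 ± 7.57 CPM (SD, n = 2), without overlap, at a log2 fold change of 0.46 (standard error 0.147, edgeR adjusted p 0.272). Timm8b, the most abundant of these genes per kilobase at 64.1 CPM, had 25.6 and 32.1 CPM untreated and 33.97 and 43.4 CPM with CCCP (log2 fold change 0.42, edgeR adjusted p 0.358). Its exons share 15.4% of their bases with Nkapd1 on the other strand.

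Timm9 and Timm10 form the main ring for carrier precursors. Timm9 stayed within 13.5 to 14.5 CPM over all 4 libraries (log2 fold change 0.06, standard error 0.169), while Timm10 had 11.51 and 12.1 CPM untreated and 13.3 and 14.97 CPM with CCCP (0.26, standard error 0.180). The difference between both genes was not tested. Timm9 turned to -0.124 with the length trend removed. Timm8a1 had a log2 fold change of 0.31 with overlapping groups, and 41.03% of the 50-base stretches of its longest transcript also occur in Gm9797, a processed pseudogene, so its count is uncertain. Timm8a2, a second Timm8a gene, failed the filter with 6 and 3 counts untreated and 2 and 2 counts with CCCP.

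The disulfide relay consists of Chchd4, the oxidoreductase that traps incoming cysteine proteins, and Gfer, the sulfhydryl oxidase that reoxidises it. Chchd4 had 16.4 and 21.3 CPM untreated and 22.1 and 24.95 CPM with CCCP. Gfer had 17.7 and 24.8 CPM untreated and 25.7 and 29.3 CPM with CCCP. Neither overlapped between groups, but in both genes the untreated libraries stood farther apart than untreated replicate 2 and CCCP replicate 1. Log2 fold changes were 0.32 for Chchd4 and 0.37 for Gfer, with edgeR adjusted p-values of 0.469 and 0.435.

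At the inner membrane, 4 of 5 genes of the TIM23 complex were higher with CCCP and 1 lower. Timm17b (chromosome X, 7899336 to 7907652), a paired subunit of the channel, had 29.7 and 36.5 CPM untreated and 45.5 and 46.9 CPM with CCCP. The means were 33.1 ± 4.83 and 46.2 ± 0.980 CPM (SD, n = 2). Its log2 fold change of 0.48 (standard error 0.145) was the highest of the import genes, with an edgeR adjusted p of 0.261. Timm17a, its paralogue, had 28.5 and 36.4 CPM untreated and 36.3 and 44.3 CPM with CCCP, so untreated replicate 2 and CCCP replicate 1 were nearly equal (log2 fold change 0.31, edgeR adjusted p 0.448). The Timm17a level per kilobase was 1.63 and 1.69 times that of Timm17b untreated and 1.35 and 1.60 times with CCCP.

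Timm50, the receptor that hands precursors to the channel, had the widest untreated spread of the complex, at 35.5 and 52.5 CPM against 55.8 and 65.3 CPM with CCCP (log2 fold change 0.46, standard error 0.206). With untreated replicate 2 left out the log2 fold change was 0.79, and with untreated replicate 1 left out 0.21. Timm23, the channel protein itself, overlapped between groups, at 23.4 and 32.5 CPM untreated and 32.4 and 38.8 CPM with CCCP. Of the 50-base stretches of its longest transcript 90.9% also occur in Gm10273, a near copy on another chromosome that held 4 to 11 counts, and reads that map to both places were not counted, so the Timm23 level is uncertain. Timm21, which links TIM23 to the respiratory chain, had 30.0 and 31.4 CPM untreated and 28.6 and 26.5 CPM with CCCP, the lone inner membrane gene with both CCCP libraries below (log2 fold change -0.16, standard error 0.133, edgeR adjusted p 0.607). It turned to 0.126 with the GC trend removed.

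All 3 genes of the TIM22 complex, which inserts carrier proteins, had both CCCP libraries above both untreated ones (24.0% of all genes tested). Timm22, the channel, had 27.9 and 33.6 CPM untreated and 39.7 and 41.0 CPM with CCCP (log2 fold change 0.39, standard error 0.143, edgeR adjusted p 0.308). Timm29, a subunit of metazoan TIM22, was even within groups, at 63.3 and 63.5 CPM untreated and 73.9 and 77.7 CPM with CCCP (0.26, edgeR adjusted p 0.349). Timm10b, the small TIM bound to this complex, had 15.4 and 21.1 CPM untreated and 21.3 and 22.6 CPM with CCCP, a gap between the groups far smaller than that between the untreated libraries. Its exons share 25.4% of their bases with Dnhd1 on the same strand.

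In the import motor, 2 of 6 genes stood higher in both CCCP libraries (24.0% of all genes tested) and the other 4 overlapped. Grpel1 and Grpel2 are nucleotide exchange factors for the motor chaperone Hspa9. Grpel1 had 37.1 and 45.9 CPM untreated and 48.2 and 58.7 CPM with CCCP, without overlap (log2 fold change 0.37, standard error 0.164). Grpel2 had 31.3 and 33.2 CPM untreated and 28.4 and 35.6 CPM with CCCP, both CCCP libraries framing the untreated ones (-0.01, standard error 0.156). The Grpel1 level per kilobase was 1.45 and 1.69 times that of Grpel2 untreated and 2.07 and 2.01 times with CCCP. Both levels are limited by overlaps on the other strand, of 12.2% of the Grpel1 exon bases with Tada2b and 24.3% of those of Grpel2 with Gm17883.

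Of the J-proteins that stimulate Hspa9, Dnajc19 had 12.8 and 13.4 CPM untreated and 17.4 and 16.95 CPM with CCCP. The means were 13.1 ± 0.390 and 17.2 ± 0.279 CPM (SD, n = 2), or 0.39 in log2 fold change (standard error 0.164, edgeR adjusted p 0.351), the smallest p-value of the motor genes. Dnajc15, a related J-protein, overlapped between groups, from 8.49 and 13.8 CPM to 11.9 and 14.6 CPM. Pam16, the regulator of these J-proteins, and Timm44, which tethers the motor to TIM23, overlapped too, with log2 fold changes of 0.17 and 0.10. Pam16 turned to -0.055 with the length trend removed, and its exons share 17.4% of their bases with Glis2 on the other strand. Timm44, the most abundant of the motor genes per kilobase, had 59.6 and 67.8 CPM untreated and 68.7 and 67.7 CPM with CCCP. Its value was -0.03 once the trend with exon length was removed.

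The matrix processing peptidase is a dimer of Pmpca, which binds presequences, and Pmpcb, which cuts them. Pmpcb had 56.4 and 69.9 CPM untreated and 71.3 and 81.1 CPM with CCCP, without overlap (log2 fold change 0.27, standard error 0.149, edgeR adjusted p 0.440). Pmpca had 90.4 and 102 CPM untreated and 95.1 and 96.3 CPM with CCCP, inside the untreated range (-0.004, standard error 0.117). Per kilobase of exon, Pmpca stood at 0.707 and 0.642 of Pmpcb untreated and at 0.589 and 0.524 with CCCP. The Pmpca value is limited by an overlap of 24.1% of its exon bases with Inpp5e on the other strand.

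Among the members matched by name alone, Tomm34 is a cytosolic cochaperone and Timmdc1 an assembly factor of complex I. Tomm34 had 32.7 and 30.4 CPM untreated and 37.2 and 37.9 CPM with CCCP (log2 fold change 0.25, standard error 0.124, edgeR adjusted p 0.403). Timmdc1 had 26.5 and 23.1 CPM untreated and 28.7 and 29.8 CPM with CCCP (0.24, standard error 0.144). In these 2 genes untreated replicate 1 was not the lowest library. The antisense transcript Tomm6os passed the filter at 0.240 to 0.331 CPM, and its standard error of 0.644 leaves no direction.

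**Figure D2:**
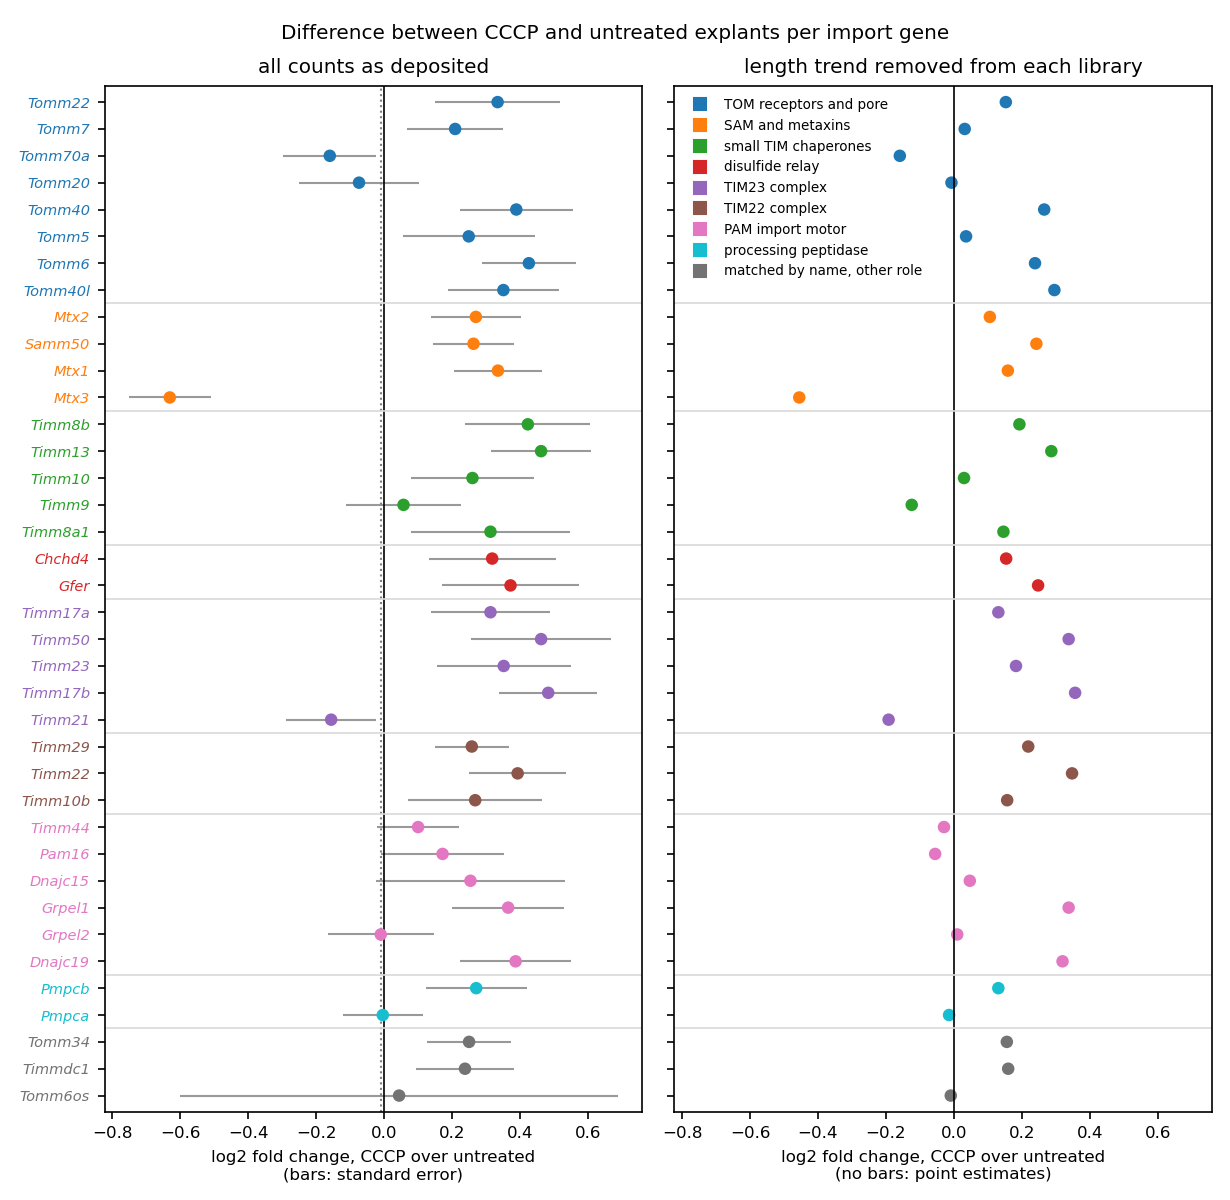
Log2 fold change of CCCP over untreated for each import gene, grouped by role, from the counts as deposited (left, bars are standard errors, dotted line is the median of all genes tested) and after removal of the length trend (right, no error shown). Mtx3 is the lowest gene in both panels, at -0.63 and -0.46, and most other genes move toward 0 on the right.

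Read apart, outer and inner membrane genes had close medians. The median log2 fold change was 0.27 over 12 outer membrane genes (9 higher, 3 lower) and 0.29 over 14 inner membrane genes (12 higher, 2 lower), a difference of -0.02 with no test. Both CCCP libraries lay above both untreated ones for 7 of 12 and 7 of 14 genes (24.0% of all genes tested) and below for 1 gene in each set (24.8%). The 7 intermembrane space genes that passed were all higher (49.2% of all genes tested), with a median of 0.32. For 6 of them both CCCP libraries lay above both untreated ones (24.0% of all genes tested).

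Summed levels gave another picture, because Tomm20 and Tomm70a made up 36.9% to 44.2% of the outer membrane sum. That sum was 763 and 935 CPM untreated and 863 and 946 CPM with CCCP, with overlap. The inner membrane sum was 416 and 497 CPM untreated and 523 and 573 CPM with CCCP, without overlap. The ratio of the outer to the inner sum was 1.84 and 1.88 untreated and 1.65 in both CCCP libraries. With Tomm20 and Tomm70a left out of the sum, a choice made after their values were seen, the ratio was 1.06 and 1.05 untreated and 1.04 and 1.02 with CCCP. Both CCCP ratios were thus still below both untreated ones, by less. The reduced sum still held Mtx3, at 55.8 and 50.7 CPM untreated and 33.97 and 34.8 CPM with CCCP. The part of Mtx3 in the remaining gap was not tested.

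**Figure D3:**
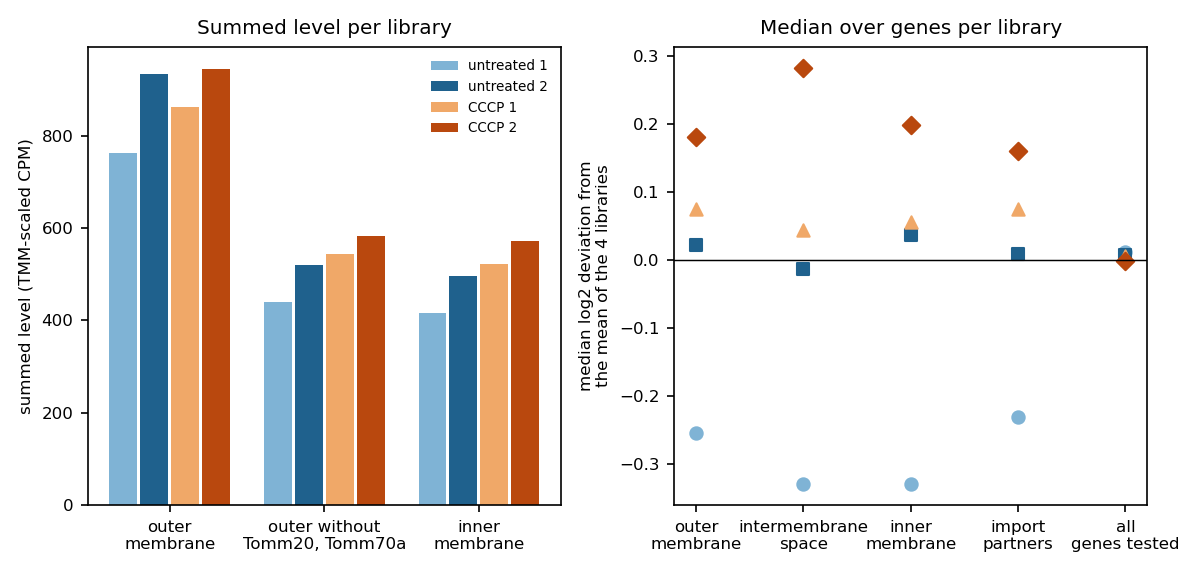
Left, summed level of the outer membrane genes, of the same genes without Tomm20 and Tomm70a, and of the inner membrane genes in each library, in CPM scaled by TMM; right, median log2 deviation of each gene group from its mean over the 4 libraries. Untreated replicate 1 is lowest in each of the 4 gene sets of import shown, down to -0.33, while all genes tested stay within 0.012 of 0.

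Fold changes went with exon length over all genes, and import genes are short. The median exon length was 1779 bases over the 38 import genes and 3467 bases over all genes tested. Spearman's rho between exon length and log2 fold change was -0.35 over the 19837 genes and -0.36 over the 38 import genes, as a description across genes of the same 4 libraries. All 23 import genes with at most 2000 bases of exon had a positive log2 fold change, with a median of 0.31, where the 5204 tested genes of such length had a median of 0.19 and 66.0% of them were positive. Of the 15 longer import genes 9 were positive, with a median of 0.24, where the 14633 longer genes had a median of -0.06.

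After the trend with exon length was removed library by library, the median of the import genes was 0.15 and 29 of 38 were positive, where 52.0% of all genes were. Both CCCP libraries then lay above both untreated ones for 16 import genes (24.7% of all genes) and below for 3 (20.9%). Outer and inner membrane medians were 0.13 and 0.17. Of the receptors, Tomm20 stood at -0.01, Tomm70a at -0.16 and Tomm22 at 0.15, and the pore Tomm40 at 0.27.

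**Figure D4:**
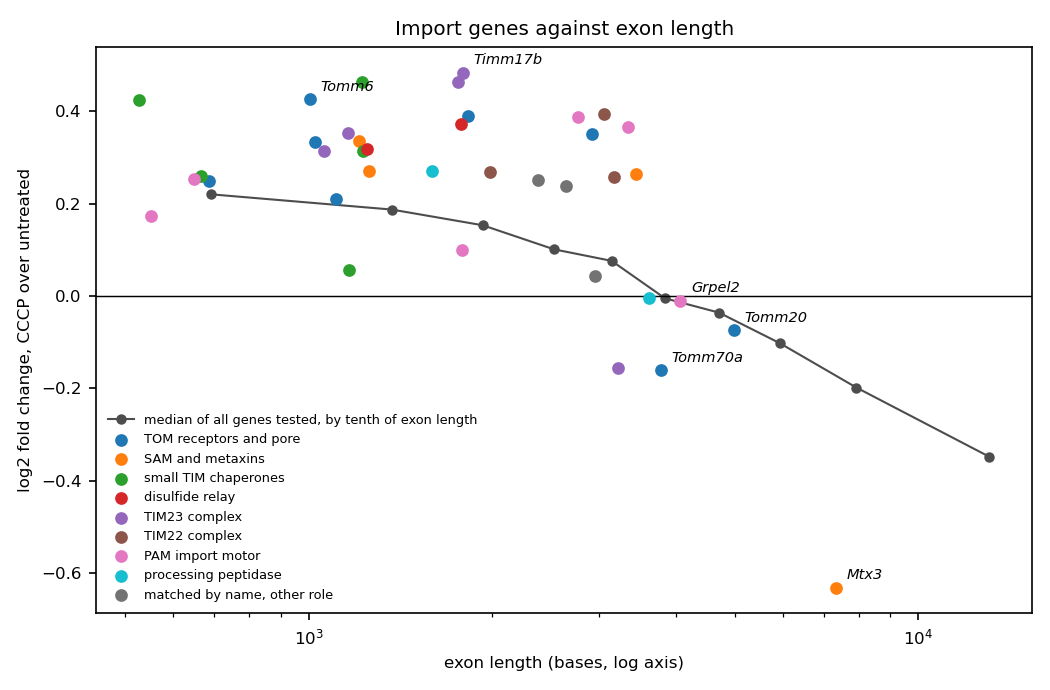
Log2 fold change of CCCP over untreated against exon length on a log axis; coloured points are import genes by role, and the grey line joins the medians of all genes tested in 10 equal classes of exon length. The medians of all genes run from 0.22 in the shortest class to -0.35 in the longest; most import genes lie above the line, and Mtx3 lies below it.

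Other genes of the import pathway, 33 partners such as motor chaperones, presequence peptidases, cristae proteins, cytosolic chaperones and relay substrates, were read from the same fit. Of the 33, 29 were higher with CCCP and 4 lower, with a median log2 fold change of 0.24. Both CCCP libraries lay above for 19 (24.0% of all genes tested) and below for 2 (24.8%). None passed in edgeR (0 of 33, where 0.0% of all genes passed). At an unadjusted p under 0.05 there were 8, each of them higher (5.45% of all genes), and 0 lower (9.16%). DESeq2 called 0 (2.99% of all genes). Without untreated replicate 1 their median was 0.11, against 0.40 when untreated replicate 2 was left out.

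Among the higher partners with the smallest p-values was Romo1, a small subunit of TIM23. Romo1 had 27.2 and 25.9 CPM untreated and 36.2 and 38.2 CPM with CCCP (log2 fold change 0.49, standard error 0.127, edgeR adjusted p 0.229). Lower partners with the smallest p-values were Atad1, which extracts misplaced tail-anchored proteins from the outer membrane, and Hsp90aa1, a cytosolic chaperone that delivers precursors to Tomm70a. Atad1 had 103 and 121 CPM untreated and 91.5 and 98.3 CPM with CCCP (-0.24, edgeR adjusted p 0.435), and Hsp90aa1 had 583 and 683 CPM untreated and 572 and 481 CPM with CCCP (-0.27, edgeR adjusted p 0.474). Hspa9, the chaperone at the core of the motor, had 517 and 714 CPM untreated and 659 and 647 CPM with CCCP, inside the untreated range; it was named after its values were seen.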

How the data were processed

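RNA from 4 libraries was analysed, 2 untreated and 2 CCCP, grouped by sample title (the count column of untreated replicate 1 is headed UM1, not UN). The authors deposited raw counts per gene; per the file headers featureCounts 2.0.3 was run on exons of the mm10 NCBI RefSeq annotation with no strand, fragment, multi-mapping or overlap option. HISAT2, SAMtools, FastQC and Subread are named in the submitters' processing notes. Exon lengths are from the same files.

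The test was edgeR 4.0.16 in R 4.3.3 (glmQLFit, glmQLFTest), with TMM scaling, filterByExpr (minimum count 10, minimum total 15), the group as sole term, two-sided, and Benjamini-Hochberg adjustment over 19837 genes. Standard errors are the log2 fold change divided by the square root of F. With 2 libraries a group an exact test of 1 gene cannot go below 0.333. The script was tested on simulated data.

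Alternatives were DESeq2 1.42.0, RLE or no scaling, no or a stricter filter (CPM of at least 1 in 4 libraries), the replicate number as a block, loess removal (span 0.5) of length or GC trends, and leaving out each library. Members and lists were chosen with earlier results of these data known. In each role the members named in full had the highest level per kilobase, the smallest p-value or the largest fold change; other members were added for their role, and partners were named by smallest p-value, 2 in each direction, of which 1 is not reported here. Overlaps between genes were computed from exon coordinates of the files. The 50-base stretches came from GENCODE M21 transcripts of the same build. All 40 members had the same coordinates in the RefSeq table. No protein sequences were used here.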

Additional observations from a re-analysis of the deposited data

How the results depend on the processing

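Counts of calls depended on the tool, on the filter and on the replicate block. The number of all genes called, 0 in the main edgeR fit, was 594 in DESeq2. In other edgeR fits it was 1107 without a filter on low counts and 2118 with the replicate block. With that block and the length trend removed it was 1453. Import members called were 1, 1, 7 and 1 in the same order, and partners 0, 1, 6 and 2. Mtx3 was among the members called in all 4 of these fits; the replicate block (10.7% of all genes called) added Timm13, Timm17b, Timm50, Timm8b, Tomm40 and Tomm6. The numbers are not a known pairing, since the labels do not state one and 2 pairs are too few to tell. The deviations of same-numbered libraries from their group means correlated at 0.36 over genes, and whether they were paired was not tested. RLE scaling, no scaling, the stricter filter and removal of the length or GC trend called 0 genes.

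Leaving out 1 library gave 1 to 34 genes called and 0 members and 0 partners. The median log2 fold change then ran from 0.152 to 0.444 for the import members, from 0.146 to 0.404 for the outer and from 0.148 to 0.522 for the inner membrane, from -0.118 to 0.01 for their difference, and from 0.11 to 0.398 for the partners, with untreated replicates 1 and 2 at the ends for each of the sets. Members without overlap in either direction numbered 25 in the main fit, 26 in DESeq2 and with RLE scaling, and 24 with the GC trend removed. They numbered 19 with the length trend removed and 32 without the filter on low counts. The share over all genes in the fit without the filter is not reported here. Counts without overlap were not computed with a library left out, since 2 against 1 library is not comparable. Among the members that passed and the partners named, 10 members and 2 partners changed sign in at least 1 fit. With the length trend removed the log2 fold change was -0.124 for Timm9, -0.055 for Pam16, -0.029 for Timm44, -0.009 for Tomm6os and 0.01 for Grpel2; with the replicate block as well it was -0.122, -0.055, -0.029, -0.01 and 0.0, and 0.006 for Tomm20. With the GC trend removed it was 0.129 for Tomm70a, 0.126 for Timm21, 0.082 for Grpel2, 0.045 for Tomm20, -0.021 for Timm44, -0.106 for Tomm6os and 0.112 for Atad1. Without library scaling it was -0.001 for Timm9 and -0.013 for Tomm6os, without the filter 0.002 for Grpel2 and 0.009 for Pmpca, and in DESeq2 and with RLE scaling 0.001 for Pmpca. With 1 library left out it ran from -0.261 to 0.168 for Tomm20, from -0.282 to 0.001 for Tomm70a, from -0.182 to 0.144 for Grpel2, from -0.079 to 0.102 for Pmpca, from -0.17 to 0.276 for Tomm6os, from -0.049 to 0.66 for Dnajc15 and from -0.119 to 0.357 for Hspa9. The cause was not tested. Depth limits Tomm20l, Timm8a2 and Tomm6os, each with at most 12 counts in a library.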
